A study of Mus musculus with 15 samples.

Results

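Mouse skin 4 days after wounding was compared with unwounded skin of day 0 by RNA sequencing. Wounded set A held 4 libraries and the unwounded vehicle group held 4, so 8 of the 15 libraries of the series entered the comparison. The groups are those of the group row in the submitters' gene table, which names the first Vehicle_Wounded and the second Vehicle_Unwounded. All mice carried K14CreERTM/LSL-SOX2, so that the keratin 14 promoter of basal keratinocytes makes a Cre enzyme that tamoxifen activates and that should then free a blocked SOX2 transgene. The labels do not say how many mice gave each library. The strain was recorded as 129/SvEv/C57/B16 X CD-1. Vehicle was 200 µl of ethanol on the skin, and tamoxifen was given at 5 mg/ml in the same volume. The series title names its question as the effect of epidermal SOX2 on repair by way of EGFR, the epidermal growth factor receptor, and its ligands.

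The sources conflict over which wounded libraries had tamoxifen. The sample records call the 4 libraries of wounded set A tamoxifen wounded, and call the other 4 wounded libraries, here wounded set B, vehicle wounded. The gene table and a column of newer group names in the submitters' sample sheet give the reverse. The unwounded libraries carry one name in every source. Under the gene table's names the comparison is wounding in vehicle skin. If the sample records hold, wounding and tamoxifen cannot be told apart in it. Wounding and day cannot be told apart under either naming, since every unwounded library is of day 0.

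A skin wound in the mouse passes through overlapping phases. Platelets and damaged cells call in neutrophils and then monocytes through chemokines. Keratinocytes at the edge switch on stress keratins, loosen their adhesions and crawl over a provisional matrix. Fibroblasts and new vessels fill the bed below. Whole skin holds all of these cells together with hair follicles, sebaceous glands, fat and the thin muscle of the panniculus carnosus. In such bulk samples fewer cells of a type and less RNA per cell cannot be told apart, and this holds for every level given here.

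Levels are RPKM, reads scaled to gene length and to the library's mapped reads, as the authors deposited them. Of 24543 genes in the table, 13922 were tested, those with 1 RPKM or more in 3 or more of the 15 libraries. Depth was 39277860 to 67782635 alignments in the wounded libraries and 57271879 to 63992429 in the unwounded ones. Skin was recognisable by its keratins, with Krt5, a keratin of the basal layer, at 1629, 1641, 1356 and 2538 RPKM in wounded and 1601, 1669, 1526 and 1543 RPKM in unwounded skin. Sox2, the gene the transgene is meant to raise, measured 2.02, 2.18, 1.87 and 3.82 RPKM in wounded skin, against 2.57, 2.56, 2.04 and 1.85 RPKM in unwounded skin. The groups overlapped (log2 difference 0.08, exact two-sided permutation p = 0.8, smallest possible 0.0286), and without wounded replicate 4 the difference was -0.12. Sox2 was also at 2.07, 2.64, 2.55 and 2.27 RPKM in wounded set B and 2.89, 2.35 and 1.98 RPKM in unwounded tamoxifen skin. The last group, whose name is not in conflict, overlapped unwounded vehicle skin, so the level of Sox2 could not separate the names. Whether reads of the transgene are counted as Sox2 is not given. Reads on a gfp sequence numbered 1 to 9 per library in wounded skin and 5 to 9 in unwounded skin. They numbered 6 to 8 in wounded set B and 3 to 5 in unwounded tamoxifen skin.

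Libraries of 1 group were not equally alike. Across genes, the log2 values of wounded libraries correlated with each other at 0.958 to 0.993 and those of unwounded libraries at 0.985 to 0.996. Wounded replicate 2 exceeded the next wounded library at least 2-fold in 168 genes and replicate 4 fell at least 2-fold below the next in 110. Replicate 4 also exceeded the next in 34. The other 6 libraries of the comparison had at most 10 genes in either direction. The unwounded libraries formed pairs, replicates 1 and 2 (0.996) and replicates 3 and 4 (0.996), with 0.985 to 0.991 between the pairs. No label gives a batch that follows these pairs, and their part in the results was not tested except by the alternatives given beside them.

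Of the 13922 genes, 5541 (39.8%) differed between wounded and unwounded skin at an adjusted p under 0.05 (limma on log2(RPKM + 0.5), Benjamini-Hochberg adjustment). They were 2847 higher (20.4%) and 2694 lower (19.4%) in wounded skin. At least 2-fold changes numbered 479 higher (3.44%) and 475 lower (3.41%). The 4 wounded libraries lay entirely above or below the 4 unwounded ones in 4978 genes (35.8%), of which 4504 (32.4% of all) were called. With only unwounded replicates 1 and 2 as the comparison, a choice made after seeing the data, 3573 genes were called. Among the called genes named in the following paragraphs, these did not pass with that comparison (adjusted p = 0.057 to 0.571): Bmp2, Btc, Ccl24, Cd209f, Cd247, Col17a1, Dkk3, Dst, Egr1, Epgn, Esr1, Etv4, Fgl2, Fos, Foxn1, Has2, Igf2, Krt1, Krt10, Krt8, Lgr5, Lrrc17, Myod1, Postn, Spry1, Thbs2 and Tnnt1. With only unwounded replicates 3 and 4 these did not pass (0.0595 to 0.337): Abca8a, Adam12, Awat1, Ccl11, Cd207, Cd247, Cd4, Elovl6, Fasn, Fgl2, Foxn1, Igf2, Krt10, Krt8, Mir130c, Myh4 and Timp4. With only wounded replicates 1 and 3 these did not pass (0.0593 to 0.489): Btc, Ccl11, Cd209f, Cd247, Cd4, Dkk3, Epgn, Esr1, Etv4, Foxn1, Has2, Krt1, Mir130c and Thbs2. The median log2 difference over all genes was 0.01. For the same contrast, the authors' deposited table gives 7456 of all 24543 genes a q-value under 0.05. The authors' deposited table called 6133 of the genes tested here, 5517 of which were also called here.

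**Figure D1:**
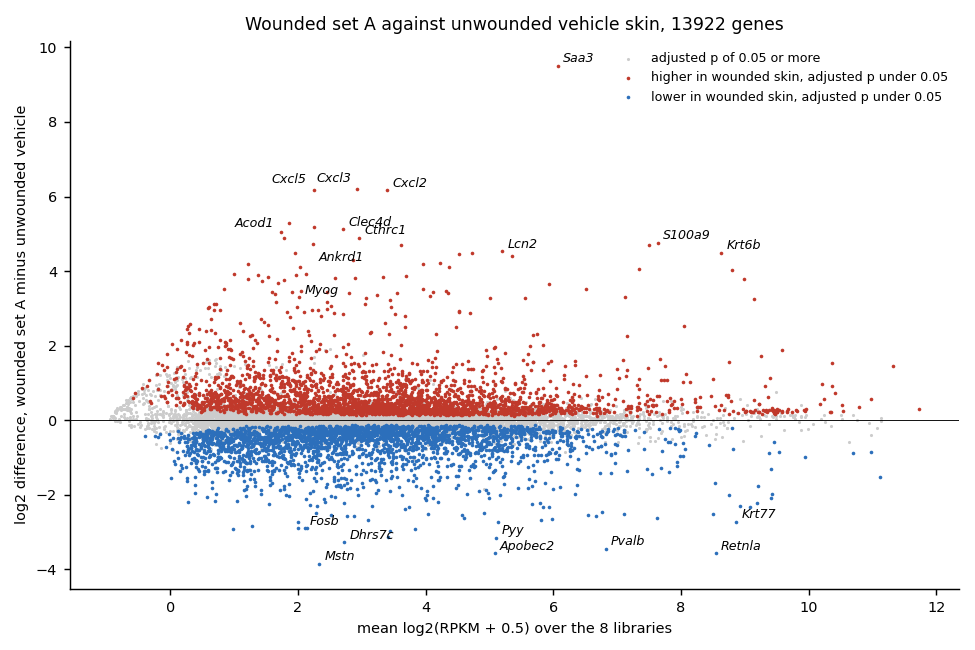
Log2 difference between wounded set A and unwounded vehicle skin (y axis) against the mean log2(RPKM + 0.5) of the 8 libraries (x axis), one point per gene for 13922 genes. Red points are called higher and blue points lower in wounded skin. The upper tail reaches 9.51 for Saa3, while the lower tail ends at -3.85 for Mstn.

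The tails were unequal. At least 16-fold higher levels in wounded skin were called for 28 genes (0.201%), and at least 8-fold lower levels for 7 (0.0503%). The 15 largest rises with groups apart were those of Saa3, Cxcl3, Cxcl2, Cxcl5, Gm5483, Stfa2l1, Clec4d, Acod1, Cthrc1, Spink12, S100a9, Ankrd1, Sprr2b, S100a8 and Lcn2. They include the chemokines Cxcl2, Cxcl3 and Cxcl5, the alarmins S100a8 and S100a9, the matrix gene Cthrc1 and the cornified envelope gene Sprr2b. The 15 largest falls were those of Mstn, Retnla, Apobec2, Pvalb, Dhrs7c, Pyy, Mlf1, Rpl3l, Mir130c, Ckmt2, Fosb, Tmem233, Mylk4, Ky and Pon1. They include Mstn, the inhibitor of muscle growth, Pvalb, a calcium buffer of fast muscle fibres, and Ckmt2, a mitochondrial creatine kinase of muscle. Pvalb is the only 1 of the 15 that the skeletal muscle list holds. The value of Mir130c is that of the listed locus and not of a mature miRNA, and it was above 1 RPKM in 1 of 4 wounded and in all 4 unwounded libraries.

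Neutrophil genes had the highest median difference of the 35 lists tested. Of 21 neutrophil markers listed, 17 were tested, and Camp, Ltf, Mpo and Elane did not reach the level for testing. Of the 17, 16 were called higher and none lower (0 lower at unadjusted p under 0.05), beside 20.4% of all genes called higher. Their median log2 difference was 2.99, against 0.01 for all genes. S100a8, a subunit of the calcium-binding alarmin calprotectin, stood at 844, 1447, 899 and 655 RPKM in the wounded libraries, against 46.3, 32.6, 30.1 and 33.2 RPKM in the unwounded ones. Every wounded library lay far above every unwounded one (log2 difference 4.7 ± 0.28, adjusted p = 1.21e-07; errors of log2 differences are limma's standard errors, n = 4 each). Its partner S100a9 gave 963, 1693, 982 and 714 RPKM in wounded skin and 48.7, 35.6, 31.3 and 37.1 RPKM in unwounded skin, with replicate 2 the highest for both genes. Clec4d, a C-type lectin receptor of myeloid cells, read 41.3, 44.5, 62.8 and 18 RPKM in wounded skin, against 0.548, 0.644, 0.674 and 0.569 RPKM in unwounded skin. Lcn2, the iron-chelating lipocalin of neutrophil granules that keratinocytes also make, reached 116, 202, 148 and 277 RPKM in wounded skin, against 7.21, 8.84, 6.0 and 6.71 RPKM. Replicate 4 was the highest for Lcn2 and the lowest for Clec4d. The one marker not called, Il1r2, a decoy receptor for interleukin 1, measured 44.1 ± 8.42 RPKM in wounded skin and 56.1 ± 12.9 RPKM in unwounded skin (SD, n = 4 each; adjusted p = 0.228). The list's summed level was 1859 to 3695 RPKM in wounded and 147 to 184 RPKM in unwounded libraries. S100a8 and S100a9 made up most of the sum in every wounded library, so it mainly follows these genes.

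The chemokines Cxcl2, Cxcl3, Cxcl5 and Ppbp, which draw neutrophils through the receptor CXCR2, were under 1 RPKM in all unwounded libraries. Cxcl2 (chromosome 5, 90903871 to 90905938, plus strand, build mm10) measured 77.4, 118, 89.1 and 76.4 RPKM in wounded skin, against 0.771, 0.849, 0.649 and 0.702 RPKM in unwounded skin. No library lay between the groups (log2 difference 6.17 ± 0.19, adjusted p = 4.66e-10). Cxcl3 (chromosome 5, 90786103 to 90789600, plus strand) gave 33.6, 84.7, 103 and 58.4 RPKM, against 0.38, 0.463, 0.288 and 0.393 RPKM in unwounded skin, with wounded replicate 1 the lowest of its group. Cxcl5 (chromosome 5, 90759360 to 90761624, plus strand) gave 47.4, 28.4, 87.2 and 21.7 RPKM, against 0.086, 0.0553, 0.0463 and 0.0725 RPKM. Ppbp, a platelet chemokine of the same cluster, varied more, with 4.44, 63.8, 31.8 and 7.36 RPKM in wounded skin and 0.489, 0.406, 0.513 and 0.518 RPKM in unwounded skin. Its log2 difference of 4.1 became 4.69 without wounded replicate 1 and 3.46 without replicate 2. On the log2(RPKM + 0.5) scale the changes of Cxcl5 (6.16) and Cxcl3 (6.21) are understated, since the unwounded values are smaller than the added 0.5.

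Of 25 chemokines, 14 were called higher (56%, against 20.4% of all genes) and 3 lower (12%, against 19.4%). Those lower were Ccl24, which draws eosinophils and is made by alternatively activated macrophages (-2.31 ± 0.53, adjusted p = 0.00378), Ccl27a, a keratinocyte chemokine for skin-homing T cells (-1.82 ± 0.21, adjusted p = 2.21e-05), and Ccl11, the eosinophil chemokine eotaxin (-0.79 ± 0.21, adjusted p = 0.00809). Ccl24 did not pass against unwounded replicates 1 and 2 alone (-1.47, adjusted p = 0.0584), nor Ccl11 against replicates 3 and 4 alone (-0.43, adjusted p = 0.135). Ccl27a read 13.9, 7.93, 9.82 and 15.4 RPKM in wounded skin, against 42.2, 41.3, 35.2 and 48.2 RPKM in unwounded skin, without overlap. Among 15 inflammatory cytokines tested of 20 listed, 10 were called higher (66.7%, against 20.4%) and 2 lower (13.3%, against 19.4%). Il1b, the inflammasome-processed interleukin, was at 40.8, 53.9, 58.2 and 45 RPKM in wounded skin, against 3.32, 4.56, 1.71 and 2.58 RPKM. Csf3, the growth factor of neutrophils, measured 3.07, 4.97, 4.99 and 2.89 RPKM, against 0.0149, 0.0537, 0 and 0.0734 RPKM in unwounded skin, where it was listed at 0 in replicate 3. Il33, an alarmin of epithelial and stromal nuclei (2.92 ± 0.21, adjusted p = 4.77e-07), and Il6 (1.97 ± 0.25, adjusted p = 5.59e-05) also rose. Csf1, the survival factor of macrophages, fell (-0.92 ± 0.20, adjusted p = 0.00237), as did Tslp, a keratinocyte cytokine of allergic skin (-0.83 ± 0.16, adjusted p = 0.00114). Il10, Il18 and Lif were not called, at log2 differences of 0.36, -0.06 and -0.07. Without unwounded replicate 3, Il10 passed (0.46, adjusted p = 0.034).

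The promoters of 5 genes that rose are shown, because cytokine and chemokine genes are textbook targets of the factors NF-kB and AP-1. The sequences run 5′ to 3′ from 250 bases before to 50 bases after the start of the gene (RefSeq, build GRCm38.p6). Capitals mark matches to GGG, any 2 bases and TTTCC in a row, a form of the NF-kB motif, or to TGANTCA, the AP-1 motif, searched on both strands.
Saa3, chr7:46715627-46715926, minus strand: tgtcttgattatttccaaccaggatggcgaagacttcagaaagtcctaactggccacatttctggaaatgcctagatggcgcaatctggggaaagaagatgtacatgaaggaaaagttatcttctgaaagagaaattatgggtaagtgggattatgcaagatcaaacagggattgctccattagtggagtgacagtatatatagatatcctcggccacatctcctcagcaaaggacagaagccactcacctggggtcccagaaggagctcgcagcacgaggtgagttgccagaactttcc
Cxcl2, chr5:90903649-90903948, plus strand: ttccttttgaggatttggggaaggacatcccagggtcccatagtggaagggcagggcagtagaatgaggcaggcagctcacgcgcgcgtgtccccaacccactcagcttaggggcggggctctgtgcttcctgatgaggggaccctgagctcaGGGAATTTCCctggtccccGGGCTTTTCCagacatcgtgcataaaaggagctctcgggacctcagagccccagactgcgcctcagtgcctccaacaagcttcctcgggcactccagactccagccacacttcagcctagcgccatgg
Cxcl3, chr5:90785851-90786150, plus strand: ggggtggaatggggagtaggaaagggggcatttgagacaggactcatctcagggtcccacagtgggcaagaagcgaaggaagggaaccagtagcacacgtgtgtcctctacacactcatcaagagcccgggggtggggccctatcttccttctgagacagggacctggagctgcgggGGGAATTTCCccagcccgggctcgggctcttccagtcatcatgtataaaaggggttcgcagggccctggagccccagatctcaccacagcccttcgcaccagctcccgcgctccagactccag
Il6, chr5:30012864-30013163, plus strand: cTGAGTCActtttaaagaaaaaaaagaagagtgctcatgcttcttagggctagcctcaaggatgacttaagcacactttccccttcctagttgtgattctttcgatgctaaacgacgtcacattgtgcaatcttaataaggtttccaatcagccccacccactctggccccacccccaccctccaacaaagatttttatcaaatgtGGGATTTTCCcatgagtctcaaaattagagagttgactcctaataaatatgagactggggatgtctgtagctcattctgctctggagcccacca
Mmp13, chr9:7272264-7272563, plus strand: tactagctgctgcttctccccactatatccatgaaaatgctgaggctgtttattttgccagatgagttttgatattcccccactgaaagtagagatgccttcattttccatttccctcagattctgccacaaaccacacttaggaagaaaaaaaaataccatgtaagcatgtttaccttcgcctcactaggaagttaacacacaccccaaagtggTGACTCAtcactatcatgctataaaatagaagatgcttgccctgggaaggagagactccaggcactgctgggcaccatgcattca
The NF-kB letters begin 97 and 78 bases before the start of Cxcl2, 73 bases before that of Cxcl3 and 44 bases before that of Il6. Those of AP-1 begin 249 bases before the start of Il6 and 35 before that of Mmp13, a collagenase. In the window of Saa3 neither set of letters occurs. Among all 32851 promoters of the table, 1.63% hold the NF-kB letters and 7.81% the AP-1 letters. The table has a promoter for 11 of the 15 largest rises, of which 2 hold the NF-kB letters and 1 holds those of AP-1. The 2 are the related genes Cxcl2 and Cxcl3, both on chromosome 5. Of 16 promoters for the 15 largest falls, 1 holds the NF-kB letters and 2 hold those of AP-1. These counts are small, and no difference between rises and falls was tested. A match is a run of letters, not a bound site. The 5 genes were picked by hand among genes that rose, with these motifs in mind, and Il6 and Mmp13 are not among the 15 largest rises. How many of the 5 hold a match is therefore no result.

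Saa3, an acute phase apolipoprotein made by activated macrophages and epithelia, had the largest difference of any gene. It lies on chromosome 7, 46711998 to 46715700, minus strand, and measured 2605, 1223, 3246 and 1035 RPKM in wounded skin, against 2.26, 1.9, 2.02 and 1.77 RPKM in unwounded skin (log2 difference 9.51 ± 0.39, adjusted p = 3.79e-09). Wounded replicates 1 and 3 lay above replicates 2 and 4, and all 4 far above the unwounded libraries. The antimicrobial and acute phase list shares Saa3, S100a8, S100a9 and Lcn2 with other lists. It had 12 of 17 tested members called higher (70.6%, against 20.4% of all genes). Orm1, an acute phase plasma protein of the liver, was its one member called lower, with 30.0 ± 7.83 RPKM in wounded skin and 49.7 ± 1.62 RPKM in unwounded skin (SD, n = 4 each), and 2 members were lower without wounded replicate 4. Gm5483 and Stfa2l1, of the cluster of stefin A protease inhibitors, rose by 5.3 and 5.19 on the log2 scale. Acod1, which makes the antimicrobial metabolite itaconate in activated macrophages, was at 15.6, 24.4, 21 and 15 RPKM in wounded skin, against 0.0865, 0.106, 0.0592 and 0.0696 RPKM. Stefin A genes are near-identical copies, and the sources used here do not say how reads were shared between them.

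Macrophage genes did not move as a group. Of 30 monocyte and macrophage markers, 8 were called higher (26.7%) and 3 lower (10%), against 20.4% and 19.4% of all genes, and the median was 0.22. With only wounded replicates 1 and 3, 15 were called higher, and without unwounded replicate 2, 6 were called lower. Arg1, the arginase of wound macrophages, measured 187, 236, 248 and 110.5 RPKM in wounded skin, against 7.3, 7.93, 8.84 and 9.65 RPKM in unwounded skin. Spp1, the matrix cytokine osteopontin, gave 111, 121, 101 and 30.5 RPKM, against 4.04, 5.33, 2.96 and 3.3 RPKM, and Chil3, a chitinase-like protein of macrophages and neutrophils, gave 83.1, 49.1, 55.2 and 34.3 RPKM, against 5.34, 4.85, 3.97 and 5.24 RPKM. All wounded libraries lay above all unwounded ones for these 3 genes, with replicate 4 the lowest for each. On the other side, Retnla, a secreted product of alternatively activated macrophages and of fat, was at 244, 58.3, 90.2 and 103 RPKM in wounded skin, against 919, 797, 1839 and 2034 RPKM in unwounded skin (log2 difference -3.58 ± 0.53, adjusted p = 0.000165). Timd4, a phosphatidylserine receptor of resident macrophages (-1.65 ± 0.23, adjusted p = 9.56e-05), and Cd209f, a lectin of dermal macrophages (-0.89 ± 0.25, adjusted p = 0.0136), also fell. Cd209f did not pass against unwounded replicates 1 and 2 alone (-0.48, adjusted p = 0.208) or with wounded replicates 1 and 3 alone (-0.65, adjusted p = 0.116).

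Antigen-presenting cell genes were lower in wounded skin. Of 13 dendritic and Langerhans cell markers tested, 8 were called lower and none higher (1 at unadjusted p under 0.05), beside 19.4% of all genes called lower. Without wounded replicate 4 or unwounded replicate 2, 1 was called higher. Cd209a, a lectin of dermal dendritic cells, read 20.2, 18.7, 14.7 and 29.5 RPKM in wounded skin, against 82.8, 66.9, 56.1 and 68.2 RPKM in unwounded skin. Cd207, the langerin of Langerhans cell granules, read 8.29, 7.3, 6.07 and 11.8 RPKM, against 21.9, 23.2, 12.9 and 13.9 RPKM. The groups did not overlap for Cd207, although wounded replicate 4 came near the lowest unwounded library. Cd74, the invariant chain of MHC class II, fell by 0.89 on the log2 scale, with 1239.5 ± 265 RPKM against 2267 ± 206 RPKM (wounded against unwounded, SD, n = 4 each). Of 9 T cell markers tested, 4 fell (44.4%, against 19.4% of all genes) and none rose (1 at unadjusted p under 0.05). Cd3g and Cd3e, chains of the T cell receptor complex, changed by -0.83 and -0.63, Cd4 by -0.46 and Cd247 by -0.35. The last 2 calls were not stable: Cd4 had an adjusted p of 0.0646 to 0.124 without any one of wounded replicates 1, 2 and 3 and unwounded replicates 1, 2 and 3, and Cd247 of 0.0501 to 0.0572 without unwounded replicate 2, 3 or 4. Without wounded replicate 3 or unwounded replicate 2, 2 T cell markers were called higher. Among 9 mast cell markers, Fcer1a, a chain of the IgE receptor, rose (1.52 ± 0.21, adjusted p = 0.000107), while Hpgds and Mrgprb2 fell and 6 were not called. That makes 11.1% higher (against 20.4% of all genes) and 22.2% lower (against 19.4%), so the list did not move as a group.

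Interferon-stimulated genes were at similar levels in both groups. None of 20 was called by limma in either direction (1 higher and 0 lower at unadjusted p under 0.05), with a median of 0.08. Of all genes, 20.4% were called higher and 19.4% lower. Their summed level was 276 to 668 RPKM in wounded libraries and 295 to 530.3 RPKM in unwounded libraries. Wounded replicates 1 and 3 were about 2-fold above replicates 2 and 4, a wider spread than the distance between the group means. When library weights were fitted, 5 of the 20 were called higher. Without wounded replicate 2 or 4, or unwounded replicate 3, 2 were, and 9 were with only wounded replicates 1 and 3. Of all 13922 genes, 3400 were called higher with the weights and 2605 with only wounded replicates 1 and 3. Leaving out those single libraries gave 2434 to 2854.

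Keratinocyte genes of the wound edge rose almost throughout. Of 25 listed, 22 were called higher (88%, against 20.4% of all genes) and none lower (0 at unadjusted p under 0.05). The median was 2.15. Krt6b (chromosome 15, 101676023 to 101680287, minus strand), a stress keratin of the suprabasal wound edge, measured 1847, 1949, 1679 and 2079 RPKM in wounded skin, against 154, 202, 51.7 and 29.3 RPKM in unwounded skin. Krt6a, its close copy on the same chromosome (chromosome 15, 101689910 to 101694307, minus strand), measured 1792, 1842, 1609 and 1902 RPKM, against 175, 239, 66.2 and 51.6 RPKM. The wounded libraries were alike, whereas the unwounded ones split, with replicates 1 and 2 far above replicates 3 and 4. The log2 difference of Krt6b was 4.49 in all, 3.41 against unwounded replicates 1 and 2 alone and 5.58 against replicates 3 and 4 alone. Reads of Krt6a and Krt6b can be exchanged between the copies, so their separate values are uncertain. Sprr1b, a small proline-rich protein of the cornified envelope, followed the same split, with 645, 619, 584 and 809 RPKM in wounded skin and 93.1, 141, 18.6 and 9.13 RPKM in unwounded skin. Its log2 difference of 4.06 was 4.68 without unwounded replicate 2 and 3.38 without replicate 4. Slpi, a secreted inhibitor of neutrophil elastase, read 89.5, 115, 82.7 and 61.5 RPKM, against 5.72, 6.29, 3.32 and 3.27 RPKM. The 3 members not called were Sprr1a (0.76 ± 0.29, adjusted p = 0.0524), Plau, the urokinase that activates plasminogen (-0.22 ± 0.13, adjusted p = 0.213), and Sox9, a follicle transcription factor (-0.24 ± 0.18, adjusted p = 0.314). Sprr1a passed without unwounded replicate 1 (0.95, adjusted p = 0.0256) or 2 (0.96, adjusted p = 0.023).

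**Figure D2:**
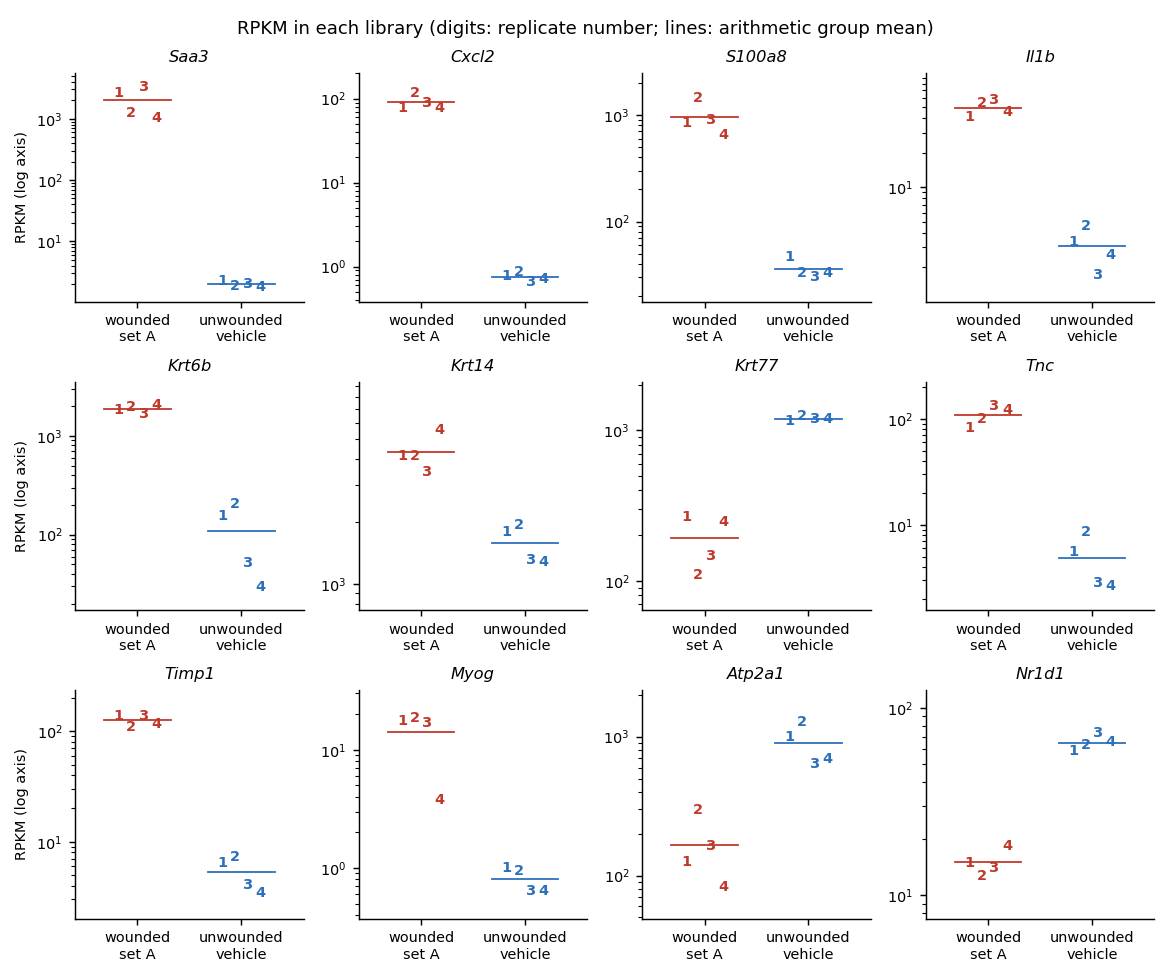
RPKM on a log axis of 12 genes in the 4 wounded set A libraries (red, left) and the 4 unwounded vehicle libraries (blue, right). Digits are replicate numbers and lines the arithmetic means of a group. The 12 genes were picked by hand among called genes, so it is no result that the groups stand apart in all 12. Over all genes the libraries did not overlap in 35.8%. Unwounded replicates 1 and 2 exceed 3 and 4 for Krt6b, Tnc, Timp1, Krt14, Il1b, Cxcl2, Myog and Atp2a1. Wounded replicate 4 falls to 3.73 RPKM for Myog.

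The epidermis below and above the wound-edge programme moved in parts. Krt14, the basal keratin whose promoter drives the Cre, was at 4138, 4150.4, 3457 and 5549 RPKM in wounded skin, against 1786, 1924, 1304 and 1271 RPKM in unwounded skin (log2 difference 1.46 ± 0.18, adjusted p = 4.36e-05). Its partner Krt5 was not called (0.14 ± 0.17, adjusted p = 0.546). Krt15, a keratin of resting basal cells and the follicle bulge, fell (-1.69 ± 0.21, adjusted p = 5.03e-05), with 224, 185, 139 and 309 RPKM in wounded skin and 580.2, 551, 743 and 827 RPKM in unwounded skin. Col17a1 and Dst, parts of the hemidesmosome that anchors basal cells, fell by 0.44 and 0.31 on the log2 scale, Itga6 rose by 0.54, and Itgb4 and Trp63 were not called. In the 8 basal markers that makes 2 higher (25%, against 20.4% of all genes), 3 lower (37.5%, against 19.4%) and 3 not called. The call of Dst was lost without wounded replicate 2 (adjusted p = 0.0513) or without unwounded replicate 3 (0.0659) or 4 (0.0675), and with only unwounded replicates 1 and 2 a single basal marker was lower.

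Of 20 genes of differentiated epidermis tested, 6 were called higher (30%, against 20.4% of all genes) and 9 lower (45%, against 19.4%). Krt77, a keratin of mature suprabasal layers in the mouse, showed the largest fall of the list, with 266, 108, 147 and 245 RPKM in wounded skin, against 1156, 1237, 1196 and 1192 RPKM in unwounded skin. Flg2, a filaggrin-like protein of the cornified layer (-2.49 ± 0.25, adjusted p = 7.74e-06), Lor, the main cornified envelope protein loricrin (-1.24 ± 0.27, adjusted p = 0.00282), and Aloxe3, a lipoxygenase of the lipid barrier (-0.97 ± 0.20, adjusted p = 0.00179), also fell. In the other direction, Tgm3, a transglutaminase that cross-links envelopes, read 9.99, 20.4, 10.3 and 15.7 RPKM, against 3.08, 3.49, 2.43 and 2.75 RPKM. Casp14, the caspase that processes filaggrin, rose by 1.98, Krt1 by 0.96 and the desmosomal cadherin Dsc1 by 0.84. Krt1 and Krt10, which pair in suprabasal cells, moved in opposite directions. Krt1 was at 1134, 1768, 1242 and 2973 RPKM in wounded skin, against 912, 1155, 746 and 653 RPKM, while Krt10, named after its values were seen, was at 1144, 1455, 1153 and 2714 RPKM, against 2765, 2839, 2643 and 2598 RPKM (adjusted p = 0.0362 and 0.0151). Replicate 4 was the highest wounded library for both, and for Krt10 it lay inside the unwounded range. The call of Krt1 was lost without any one of wounded replicates 2 and 4 and unwounded replicates 1, 3 and 4 (adjusted p = 0.0585 to 0.101, lowest difference 0.68 without wounded replicate 4).

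Sprr2b, a small proline-rich envelope gene of a family of close copies, gave 62.8, 129, 26.6 and 68 RPKM in wounded skin, against 3.41, 2.95, 1.17 and 0.945 RPKM in unwounded skin (log2 difference 4.71 ± 0.42, adjusted p = 2.98e-06). In wounded set B it stood at 5.51, 5.61, 3.18 and 3.29 RPKM, and the difference of set A minus set B was 3.71 ± 0.42, adjusted p = 4.97e-05. Spink12, a Kazal-type protease inhibitor gene, gave 19.5, 22.3, 15.7 and 15.8 RPKM, against 0.183, 0.103, 0.215 and 0.0449 RPKM in unwounded vehicle skin, where all libraries were near the floor. In unwounded tamoxifen skin it was at 1.48, 36 and 36 RPKM, above every wounded library in 2 of 3 libraries.

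EGFR and its family bind growth factors shed from the cell surface and pass the signal to the kinases MEK and ERK. Of 10 ligand and receptor genes tested, 4 were called higher (40%, against 20.4% of all genes) and 2 lower (20%, against 19.4%), and Erbb4 did not reach the level for testing. Hbegf, the heparin-binding ligand, measured 10.9, 14.1, 10.9 and 13.8 RPKM in wounded skin, against 3.42, 3.95, 2.16 and 2.01 RPKM in unwounded skin (log2 difference 1.97 ± 0.22, adjusted p = 1.78e-05). Areg, the low-affinity ligand amphiregulin, gave 6.92, 8.68, 5.25 and 10.8 RPKM, against 2.81, 2.7, 1.84 and 1.27 RPKM (1.66 ± 0.22, adjusted p = 8.4e-05). Tgfa, a ligand that keratinocytes make, gave 6.82, 9.74, 6.55 and 9.68 RPKM, against 5.29, 5.7, 4.62 and 4.58 RPKM (0.63 ± 0.14, adjusted p = 0.00234). For these 3 ligands the groups did not overlap, nor did they for Egf, which was lower. Over all genes the libraries did not overlap in 35.8%. Epgn, the ligand epigen, gave 7.34, 9.84, 7.22 and 10.2 RPKM, against 6.01, 8.98, 3.35 and 3.52 RPKM, with unwounded replicate 2 inside the wounded range (0.7 ± 0.26, adjusted p = 0.0475). Its call was lost without any one library other than unwounded replicate 2 (adjusted p = 0.052 to 0.145).

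Egf itself was lower, at 0.623, 0.822, 0.663 and 0.277 RPKM in wounded skin and 1.8, 1.78, 1.59 and 1.43 RPKM in unwounded skin (-0.99 ± 0.18, adjusted p = 0.000644). Btc, the ligand betacellulin, was called lower (-0.84 ± 0.30, adjusted p = 0.0374), but its unwounded libraries split into 2.5, 2.11, 6.42 and 6.51 RPKM, and the wounded ones, at 2.1, 1.75, 1.71 and 2.32 RPKM, overlapped the lower pair. Without any one of wounded replicates 1, 2 and 3 and unwounded replicates 3 and 4, its adjusted p was 0.059 to 0.121. Ereg, the ligand epiregulin, was not called, with 2.23, 3.79, 2.53 and 5.89 RPKM, against 2.45, 3.71, 3.21 and 3.54 RPKM. None of the 3 receptors was called. Egfr averaged 10.7 ± 1.16 RPKM in wounded skin and 9.75 ± 1.01 RPKM in unwounded skin, Erbb2 13.9 ± 3.42 RPKM against 14.5 ± 1.28 RPKM and Erbb3 6.7 ± 1.75 RPKM against 5.43 ± 0.715 RPKM (SD, n = 4 each; adjusted p = 0.25, 0.627 and 0.198). Without wounded replicate 4, Erbb2 was called lower (-0.23, adjusted p = 0.0337), and without wounded replicate 1, Erbb3 was called higher (0.39, adjusted p = 0.0358).

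**Figure D3:**
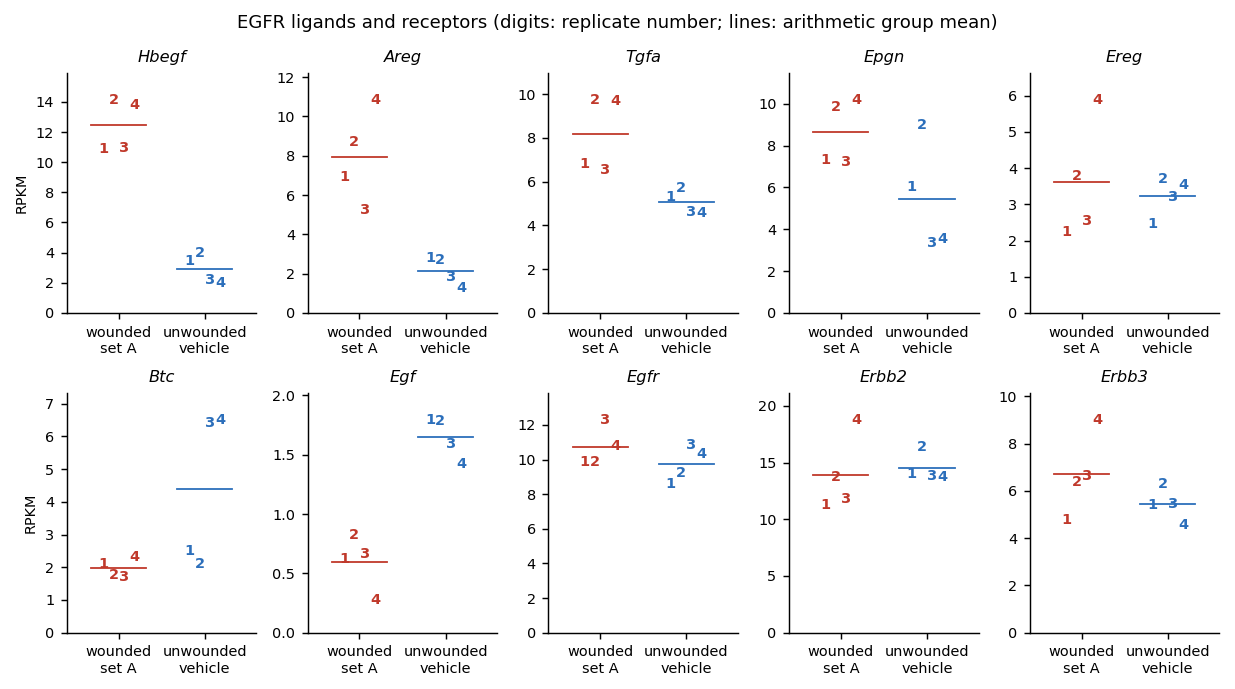
RPKM of 7 EGFR ligands and 3 receptors in the wounded set A libraries (red, left) and the unwounded vehicle libraries (blue, right), with digits for replicate numbers and lines for group means. Hbegf, Areg, Tgfa and Egf stand apart between the groups, Egf being lower in wounded skin. Btc splits within unwounded skin (2.5 and 2.11 against 6.42 and 6.51 RPKM), and the receptors overlap.

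Of 19 genes that respond to ERK, 8 were called higher (42.1%, against 20.4% of all genes) and 3 lower (15.8%, against 19.4%), with a median of 0.16. Fosl1, an AP-1 subunit of migrating keratinocytes, read 3.08, 2.58, 4.16 and 2.86 RPKM in wounded skin, against 0.291, 1.24, 0.16 and 0.438 RPKM. Dusp5 (0.96), a nuclear ERK phosphatase, Ier3 (1.03) and Etv4 (1.16), an ETS factor, rose too, Etv4 not without unwounded replicate 3 (1.0, adjusted p = 0.0543) or 4 (0.98, adjusted p = 0.0572). Fos fell by 1.36 and Egr1 by 1.04 on the log2 scale, as did the feedback inhibitor Spry1 (by 0.43). Fosb, another immediate early gene and one of the 15 largest falls, was at 0.679, 0.42, 1.26 and 2.71 RPKM in wounded skin, against 7.39, 6.7, 23.8 and 13.3 RPKM in unwounded skin. Fos, Egr1 and Fosb were highest in unwounded replicate 3 and, among wounded libraries, in replicate 4, and with only unwounded replicates 1 and 2 none of Fos, Egr1 and Spry1 was called lower.

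Hair shaft and inner root sheath genes were low in unwounded vehicle skin and in 3 of the 4 wounded libraries. Their summed level over 29 genes was 29.3 to 2062 RPKM in wounded and 43.3 to 67.5 RPKM in unwounded libraries, the upper value being wounded replicate 2 alone. Krt71, a keratin of the inner root sheath named after its values were seen, illustrates it with 2.19, 412, 11.7 and 3.02 RPKM in wounded skin and 3.95, 4.26, 2.41 and 5.61 RPKM in unwounded skin. The list's median of 1.26 comes with 1 gene called, Foxn1, a transcription factor of the hair matrix (0.72 ± 0.22, adjusted p = 0.0197). Without wounded replicate 2 none was called higher (Foxn1 0.50, adjusted p = 0.0541) and 4 were called lower. Foxn1 did not pass without unwounded replicate 1 either (0.65, adjusted p = 0.0553).

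Follicle stem cell genes were mostly lower, with 7 of 13 called lower (53.8%, against 19.4% of all genes) and 2 higher (15.4%, against 20.4%). Lhx2, a transcription factor of bulge cells (-1.16 ± 0.23, adjusted p = 0.0014), Fgf18, a growth factor of resting follicles (-1.33 ± 0.25, adjusted p = 0.000858), Cd34, a bulge surface antigen that vessels also carry (-0.92 ± 0.17, adjusted p = 0.000825), and Lgr5, a receptor for R-spondins (-0.88 ± 0.22, adjusted p = 0.00661), fell. Lhx2 read 3.92, 5.84, 2.77 and 8.4 RPKM in wounded skin, against 12.7, 10.4, 11.3 and 11.5 RPKM in unwounded skin, with no overlap. Postn and Dkk3 were called higher, by 0.42 and 0.24, and Postn is also a matrix gene of fibroblasts. Neither passed without wounded replicate 2 or 3, or without unwounded replicate 3 or 4 (adjusted p = 0.0551 to 0.139). Postn also failed without wounded replicate 1, and Dkk3 without wounded replicate 4 or unwounded replicate 1.

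Sebaceous gland genes fell, with 9 of 14 called lower (64.3%, against 19.4% of all genes) and a median of -0.72. None was called higher (0 at unadjusted p under 0.05). Awat2, a wax synthase of sebocytes, gave 4.93, 6.92, 4.61 and 10.4 RPKM in wounded skin, against 22, 25.6, 15.9 and 15.8 RPKM in unwounded skin. Dgat2l6 (-1.23 ± 0.24, adjusted p = 0.0013) and Awat1 (-0.95 ± 0.23, adjusted p = 0.00543), of the same acyltransferase family, and Ldhb (-0.94 ± 0.16, adjusted p = 0.00055) followed. Wounded replicate 4 was the highest of its group for all 4 genes. The genes of cholesterol and fatty acid synthesis had 11 of 22 called lower (50%, against 19.4% of all genes). None was called higher (1 at unadjusted p under 0.05). Elovl6 fell by 0.87, Dhcr7 by 0.72 and Fasn by 0.64 on the log2 scale. Replicate 4 was again the highest wounded library, inside the unwounded range for Elovl6 and Fasn. Fasn, the fatty acid synthase, was at 21.5, 26.3, 22.3 and 44.7 RPKM in wounded skin, against 42.2, 52.4, 41 and 38.1 RPKM. With only the 8 libraries compared in the model, 5 rather than 11 were called lower. With only unwounded replicates 3 and 4, 2 were, and without wounded replicate 1 or 3 or unwounded replicate 2, 1 or 2 were called higher.

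**Figure D4:**
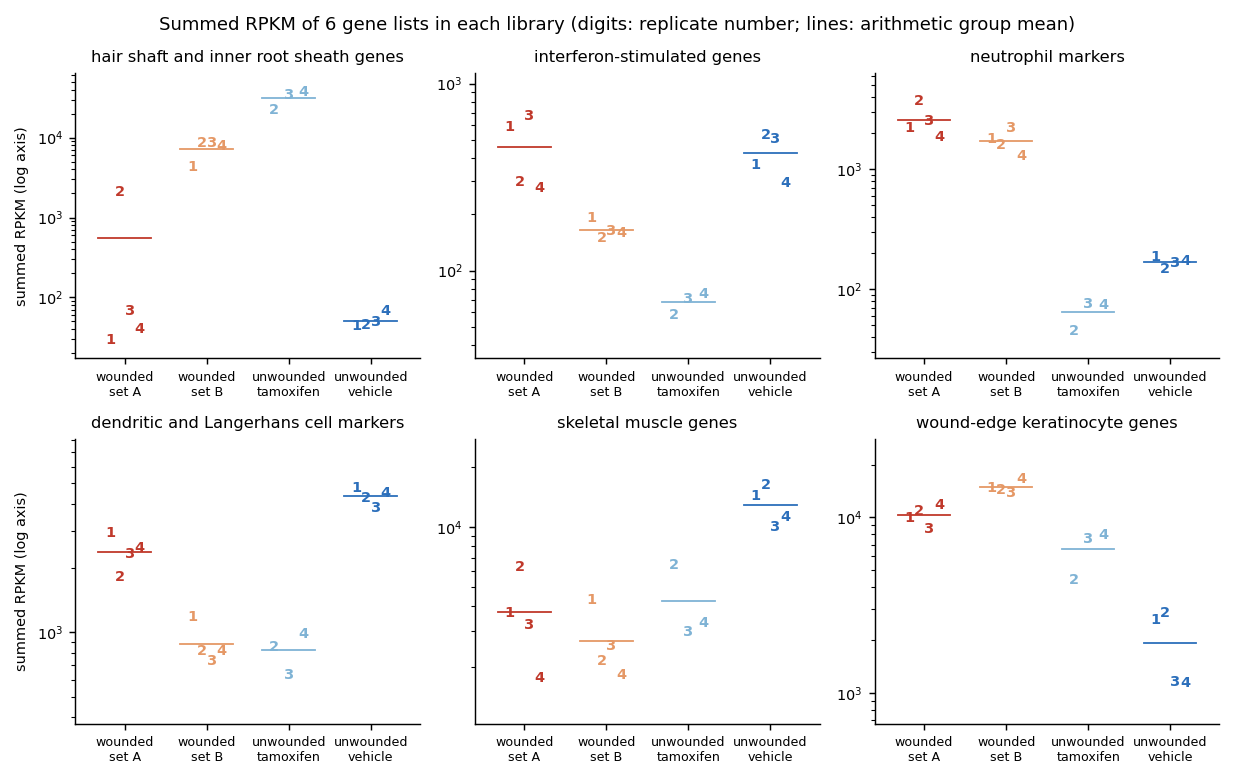
Summed RPKM on a log axis of 6 gene lists in every library of wounded set A, wounded set B, unwounded tamoxifen and unwounded vehicle skin. Digits are replicate numbers and lines the arithmetic group means. Neutrophil and wound-edge lists separate wounded set A from unwounded vehicle skin, the interferon list does not, and within set A the hair level of replicate 2 (2062 RPKM) stands above the other 3 libraries, below every library of set B and of unwounded tamoxifen skin.

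Matrix genes of early repair were mostly higher. Of 22 provisional matrix genes, 12 were called higher (54.5%, against 20.4% of all genes) and 3 lower (13.6%, against 19.4%). Tnc, the wound glycoprotein tenascin C, was at 81.9, 99.2, 131 and 122 RPKM in wounded skin, against 5.53, 8.64, 2.82 and 2.67 RPKM in unwounded skin. Cthrc1, a secreted product of activated fibroblasts, gave 60.3, 38.5, 80.2 and 15.9 RPKM, against 1.01, 1.01, 0.954 and 0.722 RPKM, with wounded replicate 4 the lowest. P4ha3, a collagen prolyl hydroxylase subunit (2.55 ± 0.19, adjusted p = 6.59e-07), and Lox, which cross-links collagen (1.97 ± 0.24, adjusted p = 4.06e-05), also rose. Thbs2, an inhibitor of vessel growth, Has2, a hyaluronan synthase, and Fgl2 were called lower, by 0.70, 0.51 and 0.31 on the log2 scale. Has2 overlapped between the groups, with 1.74, 1.74, 2.12 and 1.16 RPKM in wounded skin and 2.35, 1.72, 3.31 and 3.27 RPKM in unwounded skin. Has2 did not pass without wounded replicate 4 or unwounded replicate 3 or 4 (adjusted p = 0.0791 to 0.0912). Thbs2 did not pass without wounded replicate 2 or 4 or unwounded replicate 1, 3 or 4 (0.058 to 0.136), nor Fgl2 without unwounded replicate 2 (0.0535).

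Of 19 collagen genes, 6 were called higher (31.6%, against 20.4% of all genes) and 1 lower (5.26%, against 19.4%). The median was 0.31. Col12a1, a collagen that decorates fibrils under strain, gave 13.5, 13.8, 17.6 and 15.1 RPKM in wounded skin, against 4.88, 3.92, 3.65 and 3.47 RPKM. Col18a1 (1.06 ± 0.07, adjusted p = 4e-07) and Col4a2 (0.87 ± 0.14, adjusted p = 0.000323), of basement membranes, and Col8a1 (1.06 ± 0.18, adjusted p = 0.000412), of vessel walls, rose. Col16a1 fell (-0.89 ± 0.18, adjusted p = 0.00135). Col1a1, the main dermal collagen gene, was named after its values were seen. It was not called and averaged 1835 ± 601 RPKM in wounded skin and 2430.1 ± 808 RPKM in unwounded skin (SD, n = 4 each; adjusted p = 0.384).

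Fibroblast genes of resting dermis had 6 of 15 members called lower (40%, against 19.4% of all genes). None was called higher (0 at unadjusted p under 0.05), against 20.4% of all genes. Gsn, the actin-severing protein gelsolin, was at 429, 366, 403 and 551 RPKM in wounded skin, against 1117, 1102, 1045 and 1015 RPKM in unwounded skin. Clec3b, a plasminogen-binding lectin (-1.03 ± 0.20, adjusted p = 0.0011), Scara5, a ferritin receptor of adventitial fibroblasts (-1.02 ± 0.15, adjusted p = 0.000135), and Abca8a (-0.82 ± 0.21, adjusted p = 0.00669) fell as well. The 12 myofibroblast and contractile genes gave 3 called higher (25%) and 3 lower (25%), near the 20.4% and 19.4% of all genes. Lrrc15, a surface protein of activated fibroblasts, rose (2.46 ± 0.28, adjusted p = 2.1e-05), as did Lrrc17 (1.22) and the protease Adam12 (0.81). Acta2, the smooth muscle actin that defines myofibroblasts, was named after its value was seen and had a log2 difference of 0.02 ± 0.17, adjusted p = 0.948. Tpm1, Tpm2 and Myl9 fell by 1.44, 1.40 and 0.87, and Tpm1 and Tpm2 also belong to skeletal muscle.

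Proteinases and their inhibitors had 16 of 26 genes called higher (61.5%, against 20.4% of all genes) and 3 lower (11.5%, against 19.4%). Timp1, the inducible inhibitor of metalloproteinases, measured 138, 109.6, 137 and 117 RPKM in wounded skin, against 6.45, 7.28, 4.02 and 3.42 RPKM in unwounded skin. Mmp8, the collagenase of neutrophil granules, gave 7.89, 27.6, 19.6 and 4.94 RPKM, against 0.324, 0.373, 0.50 and 0.588 RPKM, and Mmp13 gave 11.3, 13.7, 16.7 and 5.22 RPKM, against 1.07, 1.42, 0.795 and 0.449 RPKM. The 3 called lower were all inhibitors, Timp3 (-1.08 ± 0.14, adjusted p = 5.7e-05), Timp4 (-0.73 ± 0.21, adjusted p = 0.014) and Timp2 (-0.51 ± 0.10, adjusted p = 0.00163). Timp4 did not pass against unwounded replicates 3 and 4 alone (-0.46, adjusted p = 0.178) or with the replicate block (adjusted p = 0.0524).

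Of 26 growth factor genes, 7 were called higher (26.9%) and 5 lower (19.2%), near the 20.4% and 19.4% of all genes. Inhba, a subunit of activin, gave 2.12, 2.06, 2.75 and 1.56 RPKM in wounded skin, against 0.479, 0.436, 0.348 and 0.298 RPKM. Angpt2, which loosens vessels (1.14 ± 0.10, adjusted p = 3.57e-06), and Igf2 (1.29 ± 0.39, adjusted p = 0.018) rose, Igf2 not without wounded replicate 1 (adjusted p = 0.0533). Igf1, made by dermal fibroblasts and macrophages, read 13.6, 10.7, 11.7 and 10.1 RPKM in wounded skin, against 28, 20.8, 32.9 and 30.9 RPKM in unwounded skin. Tgfb2 (-1.34 ± 0.24, adjusted p = 0.000742), Bmp4 (-0.83 ± 0.16, adjusted p = 0.00127) and Bmp2 (-0.57 ± 0.14, adjusted p = 0.00564) fell.

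Endothelial genes were modestly higher. Of 19 tested, 12 were called higher (63.2%, against 20.4% of all genes) and none lower (0 at unadjusted p under 0.05). The median was 0.54. Apln, the ligand apelin of sprouting vessel tips, gave 3.8, 2.86, 4.16 and 2.02 RPKM in wounded skin, against 0.64, 0.413, 0.262 and 0.375 RPKM in unwounded skin. Selp, the selectin that tethers leukocytes (1.25 ± 0.22, adjusted p = 0.00059), Vcam1, an adhesion molecule that also marks other cells (1.13 ± 0.14, adjusted p = 3.88e-05), and Cdh5, the cadherin of endothelial junctions (0.94 ± 0.09, adjusted p = 7.79e-06), rose. Cdh5 measured 25.8, 31.7, 35.5 and 26.2 RPKM in wounded skin and 14, 15.5, 16.2 and 15 RPKM in unwounded skin, with no overlap.

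Cell cycle genes rose in 20 of 24 cases (83.3%, against 20.4% of all genes) and fell in none (0 at unadjusted p under 0.05). Their median was 0.87. Plk1, a mitotic kinase, gave 13.7, 15.4, 12.3 and 17 RPKM in wounded skin, against 6.01, 6.12, 4.32 and 3.5 RPKM. Cdc20 (1.44 ± 0.14, adjusted p = 5.32e-06), which triggers anaphase, Ccnb1 (1.32 ± 0.12, adjusted p = 4.73e-06) and Cdk1 (1.28 ± 0.13, adjusted p = 7.3e-06), partners of mitotic entry, rose likewise. Of 27 genes of hypoxia and glycolysis, 15 were called higher (55.6%, against 20.4%) and 1 lower (3.7%, against 19.4%). Adm, the vasodilator adrenomedullin (1.17 ± 0.18, adjusted p = 0.000276), Slc2a1, the glucose transporter GLUT1 (1.09 ± 0.15, adjusted p = 0.000103), Slc16a3, a lactate exporter (1.05 ± 0.19, adjusted p = 0.000888), and Hif1a (1.02 ± 0.11, adjusted p = 9.5e-06) rose. Aldoa, an aldolase abundant in muscle, was the one called lower, with 703 ± 89.5 RPKM in wounded skin and 1403 ± 309 RPKM in unwounded skin (SD, n = 4 each). The skeletal muscle genes were lower in the same libraries, and their part in this value was not tested.

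Skeletal muscle genes had the lowest median of any list, -1.52. Of 21 tested, 16 were called lower (76.2%, against 19.4% of all genes) and 3 higher (14.3%, against 20.4%). Pvalb read 34.7, 58.6, 26.8 and 23.1 RPKM in wounded skin, against 524, 556, 233 and 285 RPKM in unwounded skin. Atp2a1, the calcium pump of fast fibres, read 126, 296, 164 and 83.3 RPKM, against 1002, 1268, 636 and 692 RPKM. Myh4, a fast myosin heavy chain (-2.62 ± 0.67, adjusted p = 0.00718), and Eno3, the muscle enolase (-2.51 ± 0.39, adjusted p = 0.000256), fell with them. Mstn (chromosome 1, 53061640 to 53068079, plus strand), the largest fall of all genes, was at 1.05, 1.71, 0.508 and 0.399 RPKM in wounded skin, against 23.8, 19, 14.9 and 17.9 RPKM in unwounded skin.

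The 3 muscle genes called higher were Myog, Myod1 and Tnnt1. Myog (chromosome 1, 134289989 to 134292548, plus strand) and Myod1 encode transcription factors that drive myoblasts to differentiate. Myog measured 17.7, 18.7, 16.8 and 3.73 RPKM in wounded skin, against 1.0, 0.94, 0.634 and 0.636 RPKM in unwounded skin (log2 difference 3.29 ± 0.44, adjusted p = 8.27e-05). Myod1 measured 5.2, 4.85, 4.24 and 1.08 RPKM, against 0.911, 1.19, 0.713 and 0.778 RPKM. Both were high in wounded replicates 1 to 3, and replicate 4 held 3.73 and 1.08 RPKM. Tnnt1, the troponin T of slow fibres, gave 14.3, 19.5, 9.09 and 3.51 RPKM, against 5.43, 1.16, 1.23 and 1.87 RPKM, with unwounded replicate 1 inside the wounded range. It did not pass without wounded replicate 1 or 2 or unwounded replicate 2, 3 or 4 (adjusted p = 0.0534 to 0.0717). Ankrd1, a stretch-responsive gene of muscle and other cells and one of the 15 largest rises, gave 26.9, 45.8, 31.3 and 7.91 RPKM, against 0.507, 0.633, 0.239 and 0.34 RPKM. Actn2 (-0.58 ± 0.37, adjusted p = 0.231) and Myh2 (-0.77 ± 0.46, adjusted p = 0.208) were not called.

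The summed muscle level was 1759.5 to 6288 RPKM in wounded libraries and 9966 to 16283 RPKM in unwounded ones. How much of each skin sample was muscle is not given, and a smaller piece of muscle in the wounded samples cannot be told apart from less RNA per fibre. Markers of other tissue components were lower as well. The counts below stand beside 19.4% of all genes called lower and 20.4% called higher. Of 15 adipocyte markers, 13 fell and none rose (0 at unadjusted p under 0.05), among them Plin1 (-1.64 ± 0.28, adjusted p = 0.000425), which coats fat droplets, Adipoq, the hormone adiponectin (-1.52 ± 0.24, adjusted p = 0.000294), the complement factor Cfd (-1.27 ± 0.23, adjusted p = 0.000789) and leptin, Lep (-1.16 ± 0.24, adjusted p = 0.00188). Pnpla2 and Fabp4 were not called, at 0.03 and -0.15. Among 9 Schwann cell markers, 7 fell and 1 rose. The one that rose was Ncam1, an adhesion molecule also of regenerating muscle (0.98 ± 0.23, adjusted p = 0.00393). Of 6 red blood cell genes, 5 fell, among them 4 globin genes, Hba-a1 by 1.42, Hba-a2 by 1.12, Hbb-bs by 0.95 and Hbb-bt by 0.88 on the log2 scale, close copies whose separate values are uncertain. None of 8 melanocyte markers was called by limma (0 at unadjusted p under 0.05). Of 4 Merkel cell markers tested, Krt18 and Krt8 rose by 0.91 and 0.64 with every unwounded library under 1 RPKM, and Isl1 fell by 0.66. Pyy, a gut hormone gene among the 15 largest falls, read 23.8, 3.98, 19.6 and 7.41 RPKM in wounded skin, against 141, 129.8, 55.9 and 107 RPKM in unwounded skin. Krt8 did not pass without any one of wounded replicates 1, 2 and 3 and unwounded replicates 2, 3 and 4 (adjusted p = 0.0766 to 0.105).

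Clock genes differed between the wounded skin of day 4 and the unwounded skin of day 0. Of 15 genes, 11 were called lower (73.3%, against 19.4% of all genes) and 1 higher (6.67%, against 20.4%). Nr1d1, the repressor REV-ERB alpha, was at 14.8, 12.7, 14 and 18.3 RPKM in wounded skin, against 58.9, 63.3, 73 and 66 RPKM in unwounded skin. Dbp, an output factor of the clock, was at 17, 14.6, 13.2 and 17.8 RPKM, against 58.7, 51.1, 63 and 61.2 RPKM. Cry1, a repressor of the core loop, moved the other way, at 7.55, 7.29, 7.75 and 7.23 RPKM, against 3.56, 3.92, 3.71 and 4.01 RPKM. The libraries of each group lay close together and far from the other group for all 3 genes. Ciart and Hlf fell by 1.04 and 1.02, and Bhlhe40, Per2 and Clock were not called. Without unwounded replicate 1, Bhlhe40 passed (0.34, adjusted p = 0.0271). The hour of sampling is not given in the labels, so hour and wounding cannot be told apart for these genes.

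Steroid receptor genes were lower. Of 7 receptor and oestrogen target genes tested, 5 fell (71.4%, against 19.4% of all genes) and 1 rose (14.3%, against 20.4%). Pgr, the progesterone receptor, gave 1.13, 0.415, 1.04 and 0.41 RPKM in wounded skin, against 2.17, 1.4, 4.13 and 3.73 RPKM. Nr3c1, the glucocorticoid receptor (-0.71 ± 0.09, adjusted p = 5.7e-05), and Esr1, the oestrogen receptor that the Cre fusion's ligand-binding part derives from (-0.41 ± 0.12, adjusted p = 0.0155), fell. Cxcl12, a chemokine and oestrogen target, was at 42.7, 42.9, 53.9 and 36.7 RPKM in wounded skin, against 13.7, 14.6, 14.7 and 13.7 RPKM. Ccnd1 was not called (0.01 ± 0.20, adjusted p = 0.981). Esr1 did not pass without unwounded replicate 3 (-0.32, adjusted p = 0.0526).

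**Figure D5:**
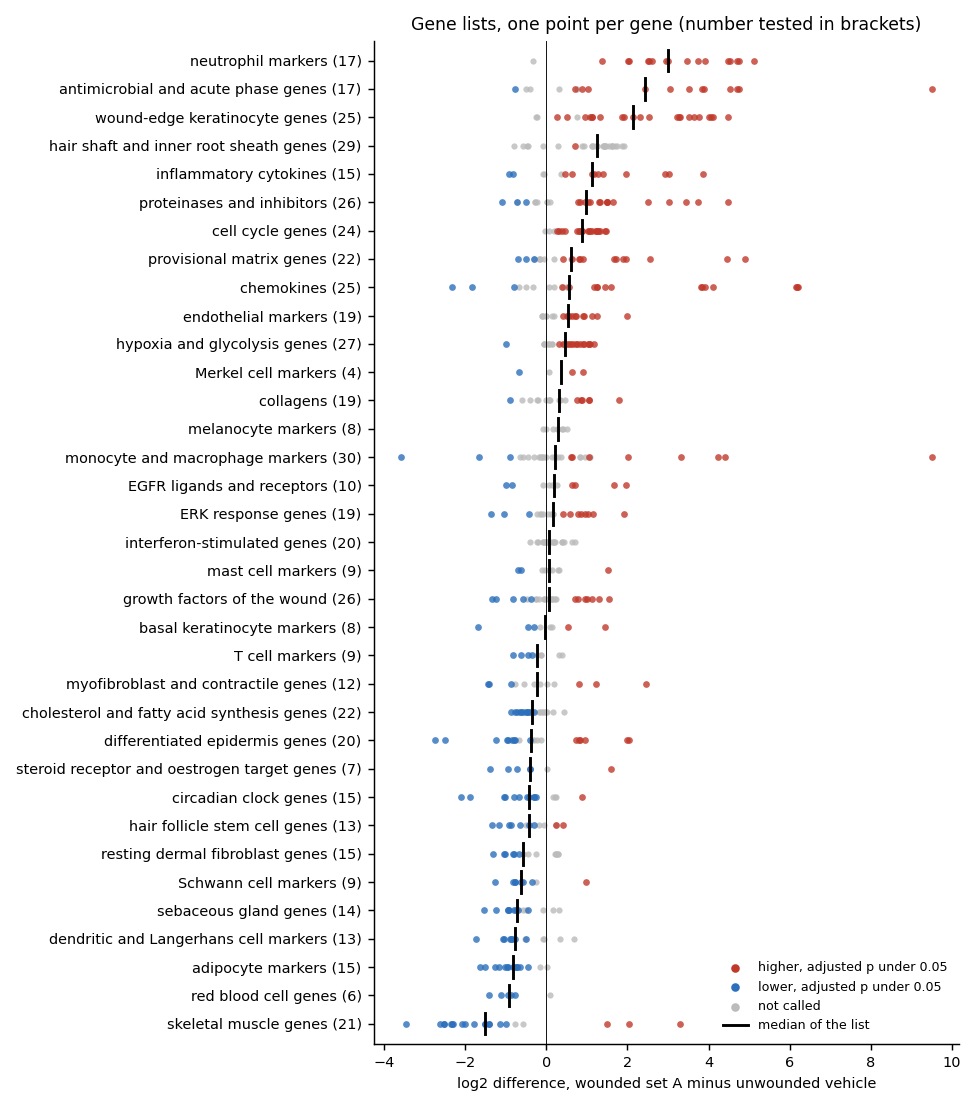
Log2 differences between wounded set A and unwounded vehicle skin (x axis) of every tested member of 35 gene lists, sorted by the list's median (black bar). Red and blue points are called higher and lower. Neutrophil markers have the highest median (2.99) and skeletal muscle genes the lowest (-1.52), with Myog at 3.29 the outlying rise of the muscle list.

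Under the sample records' names, wounding in vehicle skin is wounded set B against the same unwounded libraries. That comparison called 8244 genes (59.2%), 4269 higher (30.7%) and 3975 lower (28.6%). At least 2-fold changes were 878 higher (6.31%) and 984 lower (7.07%). The comparisons share their unwounded libraries, so their values are set side by side, and sets A and B were tested against each other. That test called 4328 genes (31.1%), 2169 higher (15.6%) and 2159 lower (15.5%) in set A, and 3686 with the replicate numbers as a block in a model of the compared groups. For neutrophil markers the median was 2.99 in set A and 3.32 in set B, for wound-edge genes 2.15 and 2.56, for cell cycle genes 0.87 and 0.97, and for skeletal muscle -1.52 and -1.92. Set A was called different from set B in 4 of the 17 neutrophil markers (3 higher and 1 lower, with the block 3 and 3), 15 of the 25 wound-edge genes (1 higher and 14 lower, with the block 2 and 15), 1 of the 24 cell cycle genes and none of the 21 muscle genes, with the same counts under the block for both. Krt6a, at -0.65 in set A minus set B, had an adjusted p of 0.273, and 0.00469 with the block. Krt6b differed by 4.49 in set A and 4.56 in set B (adjusted p of the difference = 0.928).

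Other groups depended on the set. Interferon-stimulated genes had a median of 0.08 in set A and -1.28 in set B, and all 20 of 20 were called higher in set A than in set B. With the replicate numbers as a block, 17 were. Hair genes had medians of 1.26 and 7.0, and all 29 were called lower in set A than in set B (28 with the block). Their summed level was 4341 to 8588 RPKM in set B and 21924 to 37625 RPKM in unwounded tamoxifen skin. Dendritic cell markers had 8 of 13 called lower in set A and 11 in set B, and 11 were higher in set A than in set B, with or without the block. Endothelial genes had 12 of 19 called higher in set A but 5 in set B, where 6 were lower. Over all genes, 20.4% were called higher and 19.4% lower in set A, and 30.7% and 28.6% in set B. The endothelial counts of set B are near those shares. Tested directly, 13 of the 19 were higher and 2 lower in set A than in set B (12 and 2 with the block). For all genes these shares were 15.6% and 15.5%.

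Of the 7 EGFR ligands, 5 were called lower in set A than in set B, with or without the block. Without the block, 15.5% of all genes were. Set A minus set B was -1.01 ± 0.22, adjusted p = 0.00338 for Hbegf, -1.27 ± 0.22, adjusted p = 0.000947 for Areg and -1.21 ± 0.14, adjusted p = 4.82e-05 for Tgfa. Epgn (-0.88) and Btc (-1.18) differed likewise. Ereg (-0.46, adjusted p = 0.128) and Egf (0.21, adjusted p = 0.404) were not called. Hbegf stood at 19.7, 24, 27 and 32.1 RPKM in set B. Has2 was lower than unwounded skin in set A and higher in set B (log2 difference 0.85 ± 0.17, adjusted p = 0.0008), and set A minus set B was -1.36 ± 0.17, adjusted p = 0.000104. Sox9 was not called in set A and was higher in set B (1.31 ± 0.18, adjusted p = 3.52e-05). Lrrc15 was higher in both, by 2.46 in set A and 4.88 in set B. Which of these values belongs to vehicle skin depends on the naming.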

How the data were processed

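Skin RNA was sequenced in 15 libraries, and the 8 libraries of wounded set A and unwounded vehicle skin were compared, with the other 7 kept in the model for its estimate of spread. The gene table holds RPKM per gene as deposited by the authors. Per the submitters' processing notes, bcl2fastq, TopHat2 2.1.0, Partek and the genome build mm10 were used. The sources used here give no counting rule, annotation or strand setting, nor which of the kits named in the labels' protocols (NEBnext, NuGen) made which library, so no batch could be formed. The authors' deposited comparison table holds log2 group means, a ratio, p-values and q-values. Its log2 means were recovered from the RPKM table as means of log2(RPKM + 0.1) for all 24543 genes, within 0.001. It gives no p-value for 3197 genes. The counts of alignments and of reads on gfp per library are those deposited in the authors' sample sheet. RPKM is not a count, and the depth behind 1 value can be judged only from these totals.

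Genes that reached 1 RPKM in 3 or more of 15 libraries were kept (13922). Values were taken as log2(RPKM + 0.5) and fitted with limma 3.58.1 in R 4.3.3 (4 groups, 15 libraries, intensity trend, two-sided), with Benjamini-Hochberg adjustment over 13922 genes and a threshold of 0.05. The added 0.5 understates changes of genes with low values. Sox2 was also tested by an exact permutation. The procedure was first tested on simulated data. Errors are standard errors of log2 differences or SDs of RPKM. The labels do not say that libraries of a group come from separate mice, so p-values measure the spread between these libraries, which may be technical. Replicate numbers are those of the labels. Same-numbered libraries of wounded set A and unwounded vehicle skin had correlations of deviations of -0.21 to 0.43, so they were not treated as pairs. Those of sets A and B had 0.12 to 0.43. The counts given for that comparison stand beside counts with the replicate numbers as a block. Its errors and adjusted p-values of single genes are without the block unless marked.

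Gene positions are from GENCODE M21 (GRCm38, the assembly of mm10). The named genes are the 15 largest rises and falls called with groups that did not overlap, called members of each list with the largest rises and falls, all EGFR ligands and receptors, Sox2, and uncalled members of lists with at most 3 of them. Others are marked as named after their values were seen. The gene lists were chosen with earlier results of these data known, and some may have been shaped by them. A list of mitochondrially encoded genes had no member in the table. Alternatives were the added value (0.1 or 1), the filter, the scaling, library weights, the model's samples, the replicate block and leaving out each library. Added after seeing the data were comparisons with unwounded replicates 1 and 2 only or 3 and 4 only, and with wounded replicates 1 and 3 only. Some results are not reported here.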

Additional observations from a re-analysis of the deposited data

Results flagged for a closer look

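Single libraries stood far from the other 3 of their group for 24 of 402 gene and group pairs among the genes named (5.97%), by Dixon's test at its 95% level. Chance gives about 1 in 20. In wounded replicate 4 the values lay above the rest for Adipoq at 26.82 RPKM (others 19.35 to 20.58), Cfd at 243.5 RPKM (others 99.57 to 114.8) and Egr1 at 51.57 RPKM (others 17.96 to 21.9). The same library stood above for Fgf18 at 2.303 RPKM (others 1.495 to 1.504), Itgb4 at 38.29 RPKM (others 25.63 to 26.96) and Sox2 at 3.823 RPKM (others 1.874 to 2.177). In unwounded replicate 2 the values lay above the rest for Dhcr7 at 53.98 RPKM (others 47.81 to 48.63), Erbb2 at 16.41 RPKM (others 13.77 to 14) and Hba-a1 at 207.7 RPKM (others 157.9 to 164.5). The same library stood above for Il33 at 9.581 RPKM (others 7.192 to 7.545), Il6 at 0.8345 RPKM (others 0.1679 to 0.2676) and Itga6 at 20.96 RPKM (others 18.55 to 18.88). The same library stood above for Itgb4 at 30.26 RPKM (others 25.61 to 26.23). In wounded replicate 2 the values lay below the rest for Fgl2 at 29.84 RPKM (others 39.86 to 41.7). In wounded replicate 1 the values lay above the rest for Hbb-bt at 21.34 RPKM (others 11.54 to 13.03) and Mir130c at 1.551 RPKM (others under 0.001). In wounded replicate 2 the values lay above the rest for Krt71 at 411.7 RPKM (others 2.191 to 11.66), Mlf1 at 6.007 RPKM (others 2.225 to 2.774) and Myh4 at 189.2 RPKM (others 47.46 to 68.52). In wounded replicate 4 the values lay below the rest for Myog at 3.732 RPKM (others 16.84 to 18.72), Ncam1 at 2.356 RPKM (others 4.833 to 5.156) and Vcam1 at 7.483 RPKM (others 10.32 to 10.89). In unwounded replicate 4 the values lay above the rest for Stfa2l1 at 0.5375 RPKM (others 0.1973 to 0.2411). In unwounded replicate 1 the values lay above the rest for Tnnt1 at 5.434 RPKM (others 1.156 to 1.866). Wounded replicate 4 had 9 of the 24 values and unwounded replicate 2 had 7. Its Adipoq, Cfd, Egr1, Fgf18, Myog, Ncam1 and Vcam1 values lay nearer to unwounded skin than those of the other wounded libraries. What set these libraries apart was not tested.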

How the results depend on the processing

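The count of genes called between wounded and unwounded skin, 5541, lay between 4621 and 5772 when single libraries were left out, and was 4828 with only the 8 libraries in the model and 4270 with the replicate block in that model. It was 3573 (1759 higher) with only unwounded replicates 1 and 2, and 4128 with only replicates 3 and 4. Library weights called 7041 genes between wounded sets A and B, against 4328. Over these settings 145 of 201 named genes kept their direction and side of the threshold under each of 20 settings. The 56 others changed under at least 1. Same-numbered libraries share only a number, and a call lost under the block is not read as a weaker effect. The genes whose direction turned were not called in the comparison itself. Leaving out single libraries gave ranges for Erbb2 (-0.23 to 0.01), Ccnd1 (-0.04 to 0.06), Acta2 (-0.03 to 0.05), Ereg (-0.17 to 0.24), Itgb4 (-0.04 to 0.15), Krt5 (-0.04 to 0.26), Lif (-0.14 to 0.00), Pnpla2 (-0.06 to 0.10) and Sox2 (-0.12 to 0.17). Under other settings the log2 difference took the opposite sign as follows. With quantile normalization it was -0.01 for Acta2, -0.02 for Ccnd1 and -0.04 for Krt5. With library weights it was -0.04 for Acta2, -0.06 for Ccnd1, -0.22 for Ereg, -0.04 for Pnpla2 and -0.06 for Sox2. With unwounded vehicle replicates 1 and 2 only, it was -0.02 for Ccnd1, 0.01 for Col1a1, -0.12 for Pnpla2 and -0.09 for Sox2. With unwounded vehicle replicates 3 and 4 only, it was -0.00 for Acta2, 0.04 for Fabp4 and 0.05 for Il18. With wounded set A replicates 1 and 3 only, it was -0.05 for Acta2, -0.08 for Ccnd1, -0.36 for Ereg, -0.06 for Itgb4, -0.09 for Krt5, 0.03 for Lif, -0.09 for Pnpla2 and -0.16 for Sox2. The cause was not tested. Depth as RPKM gives no interval of its own, and genes under 1 RPKM rest on few reads.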
